A study of Ambystoma mexicanum with 12 samples.

Results

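Gene expression was measured in forelimb blastemas of the axolotl (Ambystoma mexicanum), and the genes described here were high in distal blastemas, stayed near that level at the low dose of talarozole and were low both at the high dose and in proximal blastemas. They were selected on their measured levels in all 12 libraries, and 60 genes of 99081 identifiers in the table were kept. A blastema is the growth of proliferating cells at the tip of a limb stump from which a salamander rebuilds what was amputated. All groups were white (d/d) animals, 3 months old and 5 cm long, and blastemas were collected at 14 days post amputation. Distal blastemas followed amputation through the carpus, at the wrist, and proximal blastemas followed amputation through the upper humerus.

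The 4 groups of 3 libraries were distal blastemas from animals kept with the solvent dimethyl sulfoxide (DMSO), the same amputation with 0.1 uM talarozole (TAL) or with 1 uM TAL, and proximal blastemas given DMSO. Each library was a pool of 3 blastemas, so the spread between libraries is a spread between pools and not between single animals. Drug or solvent was added to the water in which the animals lived, from day 4 for 7 days, and refreshed every other day, with plain water after that, which exposes the whole animal and not the limb alone. The labels do not say whether pools came from separate animals, and the p-values below measure only the spread between these pools.

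Retinoic acid is a vitamin A derivative that binds nuclear receptors and changes transcription of their target genes. In the salamander limb it is known for moving the positional identity of a blastema from distal to proximal, so that a wrist stump given an excess regrows upper arm structures. CYP26 enzymes break retinoic acid down, and talarozole inhibits them. Distal limb identity is marked in vertebrates by transcription factors such as those of the posterior Hox genes, and proximal identity by those of the Meis family. The table pairs no identifier with a gene name, and 0 identifiers matched the RefSeq gene list supplied for the species, so the members carry identifiers and no role is given to any of them. For the same reason the tissue labels could not be set against marker genes.

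The rule took identifiers with the prefix AMEX60DD and without the prefix AMEX60DDU, with at least 10 counts in at least 3 of the 12 libraries. It used log2(CPM + 0.5), where CPM is the usual depth-scaled count, the count over the library total. The mean over DMSO distal libraries had to exceed the means over DMSO proximal and over 1 uM TAL libraries by at least 1, and the 0.1 uM TAL mean had to lie within 0.5 of the DMSO distal mean. Of 21835 genes with enough counts, 1680 were higher in DMSO distal than in DMSO proximal libraries by that margin. Of these, 469 were also lower at 1 uM TAL by that margin, and 90 of the 469 stayed within the bound at 0.1 uM TAL. The 60 with the largest gap were kept, the gap being the lowest of the 6 DMSO distal and 0.1 uM TAL libraries minus the highest of the 6 1 uM TAL and DMSO proximal libraries. The rule used the values of all 12 libraries, so the differences it fixed are given below as descriptions.

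**Figure D1:**
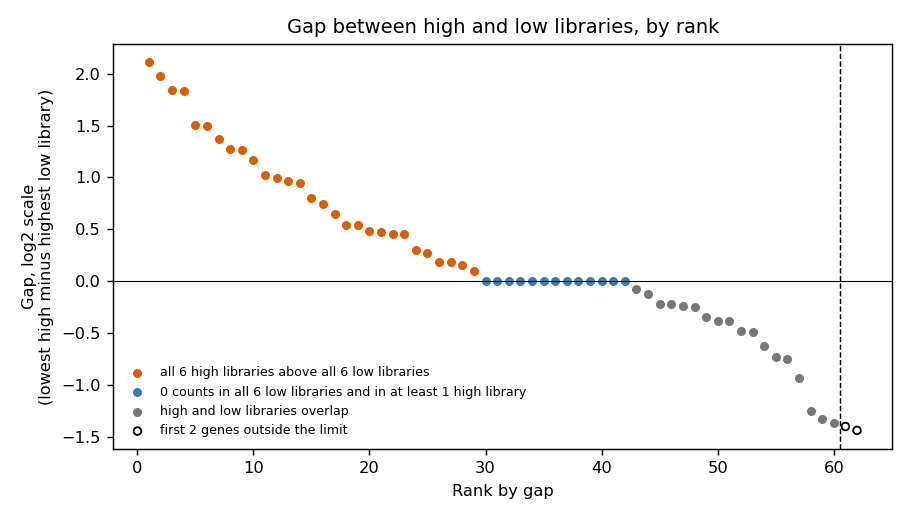
Gap on the log2 scale (vertical axis) against rank by gap (horizontal axis) for the 60 members and the first 2 genes outside the limit, which is the dashed line. High libraries are the 6 DMSO distal and 0.1 uM TAL libraries and low libraries the 6 1 uM TAL and DMSO proximal ones. The gap is above 0 for 29 members, 0 for 13 and below 0 for 18.

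The members fell into 3 kinds. In 29 members every DMSO distal and 0.1 uM TAL library lay above every 1 uM TAL and DMSO proximal library. Over all 41884 genes tested in the model described below, 0.239% were separated in that way, a share that cannot be read against the members because the rule ranked them on this separation. In 13 members the gap was 0 because the gene had 0 counts in all 6 low libraries and also in 2 or 3 of the 6 high ones. In the remaining 18 members the gap was below 0, so at least 1 low library lay above at least 1 high library.

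The limit of 60 cut through genes with overlapping groups. The last 2 members, AMEX60DD047161 and AMEX60DD041409, had gaps of -1.33 and -1.37, and the first 2 genes outside, AMEX60DD028209 and AMEX60DD038292, had gaps of -1.40 and -1.44. AMEX60DD041409 was at 1.61, 19.6 and 3.66 CPM in DMSO distal, 2.92, 2.53 and 9.01 CPM in 0.1 uM TAL, 2.62, 2.58 and 0.705 CPM in 1 uM TAL, and 0.910, 4.95 and 0 CPM in DMSO proximal libraries. A single DMSO distal pool carried most of its distal level, and the lowest DMSO distal pool lay below 2 of the 3 pools at 1 uM TAL.

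**Figure D2:**
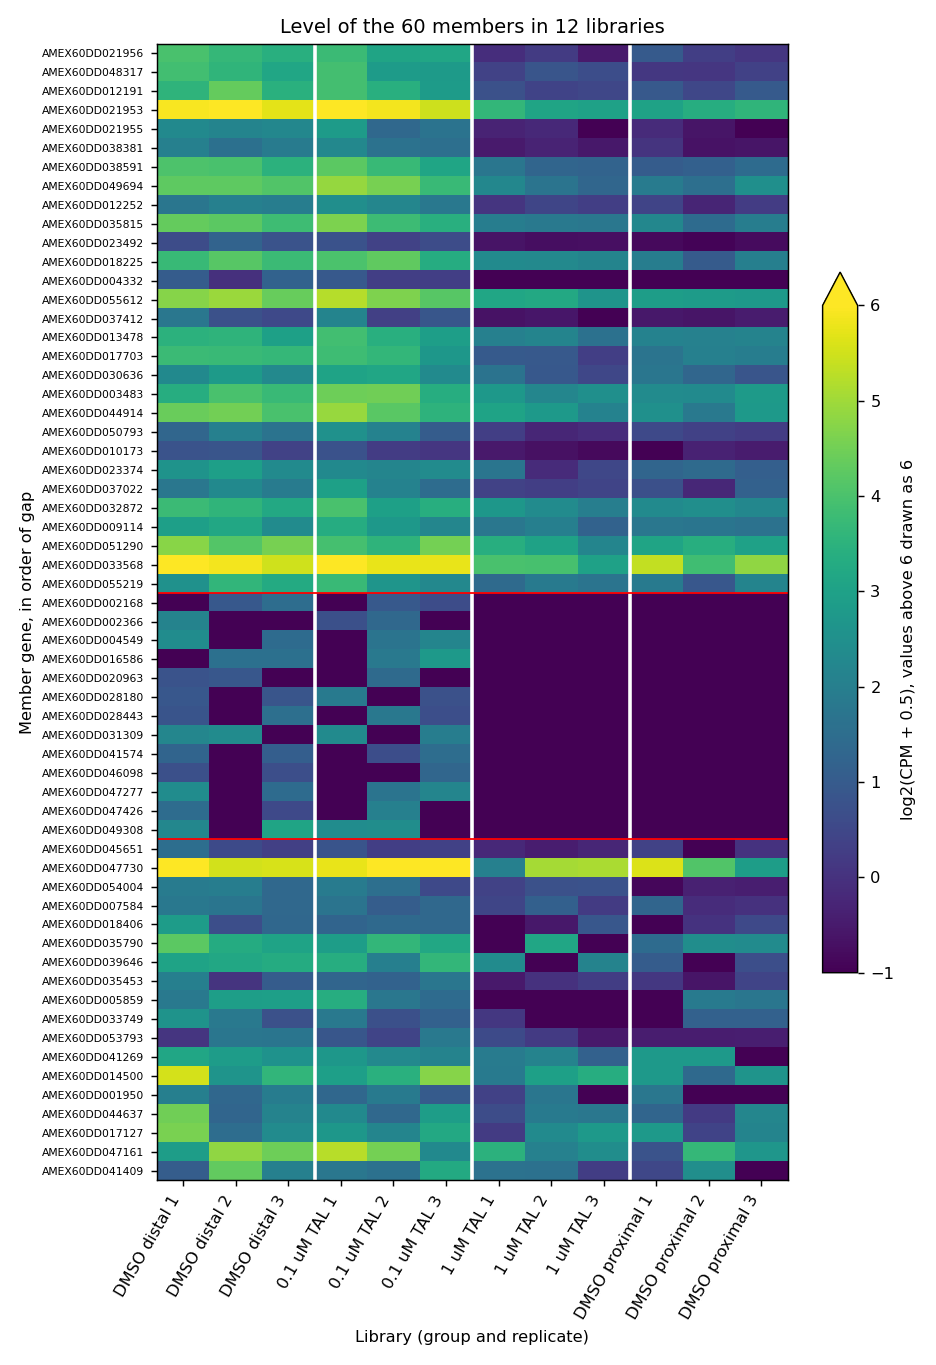
Level of the 60 members (rows, in order of gap) in the 12 libraries (columns), as log2(CPM + 0.5) by colour, with values above 6 drawn as 6. White lines part the 4 groups and red lines part the 29 members with separate libraries, the 13 with 0 counts in all 6 low libraries and the 18 with overlapping libraries.

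Total counts per library ranged from 8409618 to 13937318, and the 3 libraries at 1 uM TAL were the deepest, at 11977855 to 13937318. A floor of 3 counts stood at 0.215 to 0.357 CPM, which sets the lowest level that can be told from 0 and covers counting error only. The median Spearman correlation across genes was 0.705 over the 12 pairs within groups and 0.706 over the 54 pairs between groups, so pools of 1 group were on the whole not closer to each other. In 10 of the 12 libraries the top gene by counts was AMEX60DD016881, and the exceptions were 1 uM TAL replicate 1 and DMSO proximal replicate 2. All 60 members together took 0.0488 to 0.0725% of counts in the 6 DMSO distal and 0.1 uM TAL libraries, 0.0131 to 0.0161% in 1 uM TAL libraries and 0.0136 to 0.0197% in DMSO proximal libraries. In bulk tissue, fewer cells of a type and less RNA per cell cannot be told apart.

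The widest gap belonged to AMEX60DD021956, which was nearly lost at 1 uM TAL and in proximal blastemas. It was at 15.3, 12.1 and 10.2 CPM in DMSO distal libraries and 13.2, 8.03 and 8.32 CPM at 0.1 uM TAL. At 1 uM TAL it was at 0.442, 0.667 and 0.215 CPM and in DMSO proximal libraries at 1.48, 0.724 and 0.585 CPM. The lowest of its 6 high libraries, at 8.03 CPM, stood above the highest of its 6 low ones, at 1.48 CPM. Estimated counts in the low libraries were 6.16, 8.71 and 2.57 at 1 uM TAL and 14.6, 6.18 and 4.92 in DMSO proximal, so its low levels rest on few reads. Its mean was lower at 1 uM TAL than in DMSO distal libraries by a log2(CPM + 0.5) difference of -3.81, the largest of the 29 separate members.

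Next in the order of gap stood AMEX60DD048317 and AMEX60DD012191. AMEX60DD048317 was at 14.3, 11.4 and 8.26 CPM in DMSO distal, 14.4, 6.71 and 6.57 CPM in 0.1 uM TAL, 0.791, 1.30 and 1.09 CPM in 1 uM TAL, and 0.602, 0.569 and 0.772 CPM in DMSO proximal libraries. All 3 of its 1 uM TAL libraries lay above all 3 DMSO proximal libraries, by a small margin. AMEX60DD012191 was at 11.3, 19.8 and 10.3 CPM in DMSO distal, 14.6, 10.1 and 6.61 CPM in 0.1 uM TAL, 1.18, 0.828 and 0.908 CPM in 1 uM TAL, and 1.45, 0.910 and 1.49 CPM in DMSO proximal libraries. Its 1 uM TAL and DMSO proximal libraries overlapped.

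The fourth gene in the order, AMEX60DD021953, was an abundant member that did not reach the floor in any group. It was at 60.6, 67.7 and 51.5 CPM in DMSO distal, 95.4, 58.3 and 44.1 CPM in 0.1 uM TAL, 12.02, 7.98 and 7.53 CPM in 1 uM TAL, and 7.76, 9.71 and 11.5 CPM in DMSO proximal libraries. Its low levels rest on 76.6 to 167.6 estimated counts per library. The means were 9.18 ± 2.48 CPM at 1 uM TAL and 9.66 ± 1.88 CPM in DMSO proximal libraries (SD, n = 3 each), so a residual level of about the same size was left in both.

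The other 6 of the 10 members with the widest gap shared this pattern at lower levels. AMEX60DD021955 averaged 4.22 ± 0.311 CPM in DMSO distal, 3.80 ± 2.49 CPM in 0.1 uM TAL, 0.228 ± 0.199 CPM in 1 uM TAL and 0.190 ± 0.205 CPM in DMSO proximal libraries (SD, n = 3 each). AMEX60DD038381 averaged 3.12 ± 0.597, 3.10 ± 1.02, 0.235 ± 0.0683 and 0.280 ± 0.224 CPM in the DMSO distal, 0.1 uM TAL, 1 uM TAL and DMSO proximal libraries. Both were near the floor in the low groups, where no library held more than 5.31 estimated counts of either gene. They met the count minimum of the rule through high libraries alone, so their low levels there are in part built into the choice. AMEX60DD012252, at 3.30 ± 0.412 CPM in DMSO distal libraries, was at 0.722 ± 0.170 CPM at 1 uM TAL and 0.619 ± 0.262 CPM in DMSO proximal libraries. The 3 others were above 1 CPM in every library.

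AMEX60DD038591 was at 16.1, 15.4 and 10.9 CPM in DMSO distal, 18.3, 12.7 and 8.24 CPM in 0.1 uM TAL, 2.89, 1.92 and 1.85 CPM in 1 uM TAL, and 1.54, 1.71 and 2.22 CPM in DMSO proximal libraries. AMEX60DD049694 averaged 18.2 ± 1.17 CPM in DMSO distal, 21.7 ± 8.07 CPM in 0.1 uM TAL, 3.00 ± 1.15 CPM in 1 uM TAL and 3.58 ± 1.35 CPM in DMSO proximal libraries (SD, n = 3 each). AMEX60DD035815 was at 3.44, 3.08 and 2.93 CPM at 1 uM TAL, a narrow spread, and at 4.24, 2.23 and 3.41 CPM in DMSO proximal libraries. The low groups overlapped in all 3 genes.

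**Figure D3:**
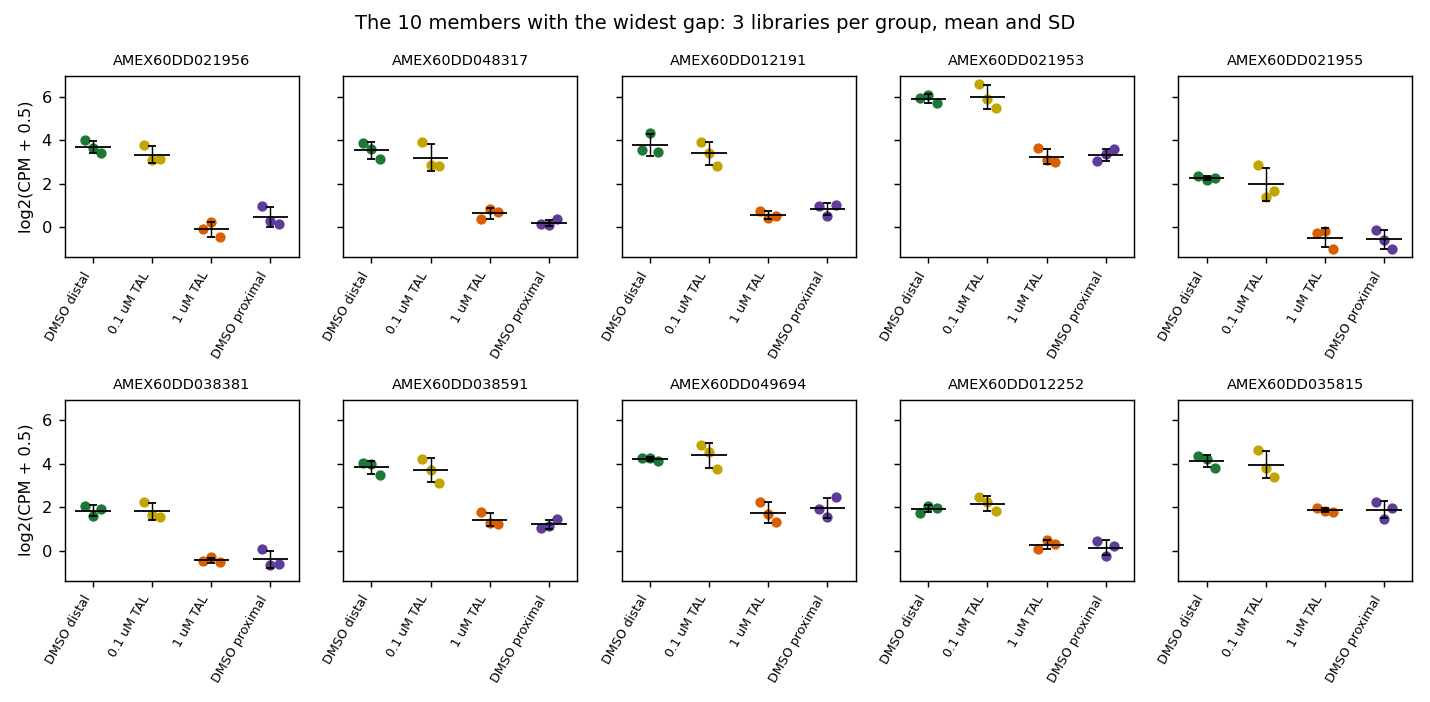
Level of the 10 members with the widest gap in each library (points), as log2(CPM + 0.5), with the group mean (bar) and SD (whiskers) of 3 libraries per group. In each panel the 6 DMSO distal and 0.1 uM TAL points lie above the 6 1 uM TAL and DMSO proximal points, and the 0.1 uM TAL points spread more widely than the DMSO distal points in most panels.

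The members AMEX60DD021953, AMEX60DD021955 and AMEX60DD021956 have nearly consecutive identifier numbers, which was noticed after their values were seen. No other pair of members had numbers within 10 of each other. The sources used here do not say whether identifier numbers follow position in the genome. The identifier between them, AMEX60DD021954, had too few counts for the rule, at 0.343, 0.798 and 0.248 CPM in DMSO distal, 0.440, 0.377 and 0.453 CPM in 0.1 uM TAL, 0, 0 and 0 CPM in 1 uM TAL, and 0.0709, 0.221 and 0.0761 CPM in DMSO proximal libraries. Its 6 high libraries also lay above its 6 low ones, but the closest values were 0.248 CPM in DMSO distal replicate 3 and 0.221 CPM in DMSO proximal replicate 2. Both were below the floor of 3 counts in those libraries, at 0.270 and 0.351 CPM, so that separation cannot be told from counting error. The identifiers just before, AMEX60DD021952 and AMEX60DD021951, did not share the full pattern. Their DMSO distal minus DMSO proximal differences were -0.64 and -0.86 on the log2(CPM + 0.5) scale. AMEX60DD021952 was at 0, 0 and 0 CPM in DMSO distal and 0, 0 and 1.38 CPM in DMSO proximal libraries, so its difference rests on 1 pool. For 1 uM TAL minus DMSO distal, AMEX60DD021951 went the way of the members, at -0.94, and AMEX60DD021952 the other way, at 0.51. AMEX60DD021951 overlapped there, at 0, 0.854 and 1.61 CPM in 1 uM TAL and 2.09, 1.42 and 1.51 CPM in DMSO distal libraries.

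The members of highest level in DMSO distal libraries were of mixed kind. AMEX60DD047730, the most abundant at 65.2 ± 32.8 CPM (SD, n = 3), overlapped between groups. It was at 103.0, 45.1 and 47.4 CPM in DMSO distal, 54.1, 76.2 and 116.4 CPM in 0.1 uM TAL, 3.63, 33.01 and 33.9 CPM in 1 uM TAL, and 49.1, 16.6 and 6.91 CPM in DMSO proximal libraries. At 1 uM TAL 1 library lay far below the other 2, and it was the library in which AMEX60DD016881 was not the most abundant gene.

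AMEX60DD033568 was at 64.2, 58.8 and 44.9 CPM in DMSO distal, 106.9, 54.3 and 53.8 CPM in 0.1 uM TAL, 15.4, 15.2 and 7.49 CPM in 1 uM TAL, and 40.2, 13.9 and 28.3 CPM in DMSO proximal libraries. Its highest proximal library came close to the lowest distal one, and the fitted log2 fold change of 1 uM TAL over DMSO proximal was -1.15 (SE 0.39), with an edgeR adjusted p of 0.686. AMEX60DD055612 was tighter, at 25.6 ± 5.00 CPM in DMSO distal, 26.1 ± 9.60 CPM in 0.1 uM TAL, 7.60 ± 1.68 CPM in 1 uM TAL and 6.63 ± 0.347 CPM in DMSO proximal libraries (SD, n = 3 each). AMEX60DD051290, the fifth in level, was at 22.2 ± 4.81, 16.3 ± 5.87, 7.19 ± 2.96 and 8.47 ± 1.26 CPM in the same order of groups.

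Taking all 29 separate members, the mean level ranged from 1.11 to 59.9 CPM in DMSO distal libraries, with a median of 11.2 CPM, and 15 of the 29 were above 10 CPM. The median of the member means was 9.84 CPM at 0.1 uM TAL, 1.65 CPM at 1 uM TAL and 2.06 CPM in DMSO proximal libraries. Of the 29, 4 were at 0 counts in at least 1 low library. One of these, AMEX60DD004332, had 0 counts in all 6, against 1.54, 0.475 and 1.81 CPM in DMSO distal and 1.44, 0.741 and 0.734 CPM in 0.1 uM TAL libraries. With the floor of 3 counts per library, it was at least 5.50-fold lower at 1 uM TAL than in DMSO distal libraries, and at least 3.78-fold higher in DMSO distal than in DMSO proximal libraries. These bounds cover counting error and not the spread between pools, and DMSO distal replicate 2 held only 4.79 estimated counts. The gene met the count minimum of the rule through high libraries alone, so its absence from the low ones is built into the choice. The same limit holds for the separate members AMEX60DD021955, AMEX60DD038381, AMEX60DD023492, AMEX60DD037412 and AMEX60DD010173, which reached 10 counts in no low library.

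The 13 members at 0 in all low libraries were present in some distal pools and absent in others. Of these, 9 were at 0 in 2 of the 6 high libraries and 4 in 3 of the 6. DMSO distal replicate 2 and 0.1 uM TAL replicate 1 each lacked 9 of the 13, whereas DMSO distal replicate 1 lacked 2 and replicate 3 lacked 3. Over the 21835 genes with enough counts, 8.43% were at 0 in DMSO distal replicate 2 and 7.84% in DMSO distal replicate 1. Identifiers with a count above 0 numbered 42963 and 49477 in the same libraries. At 0.1 uM TAL they numbered 45159 in replicate 1, which lacked 9 of the 13, and 44855 in replicate 2, which lacked 3. The part of the number of identifiers detected in the absences was not tested. The count minimum of the rule was met in these 13 genes through the high libraries alone, so their absence from the low ones is built into the choice. A total of 74 genes with enough counts had 0 in all 6 1 uM TAL and DMSO proximal libraries.

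The highest of the 13, AMEX60DD049308, was at 4.24, 0 and 8.02 CPM in DMSO distal and 4.83, 4.93 and 0 CPM in 0.1 uM TAL libraries. Its mean in DMSO distal libraries, 4.08 ± 4.01 CPM (SD, n = 3), was at least 17.6-fold that at 1 uM TAL at the floor of 3 counts per library. That bound covers counting error and not the spread between pools, and DMSO distal replicate 2 was itself at 0. AMEX60DD004549 and AMEX60DD047277 had identical values in all 12 libraries, at 4.84, 0 and 2.23 CPM in DMSO distal and 0, 2.73 and 4.05 CPM in 0.1 uM TAL libraries. Estimated counts divide reads that fit several genes, and whether that made these values identical was not tested. These 2 identifiers are uncertain and are best read as 1 profile, though both are counted among the members.

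Among the 18 overlapping members, 3 stood at least 4-fold higher in DMSO distal replicate 1 than in the next DMSO distal pool, a trait noticed after the values were seen. AMEX60DD044637 was at 21.9, 1.93 and 3.85 CPM in DMSO distal libraries, AMEX60DD017127 at 23.7, 2.34 and 4.74 CPM, and AMEX60DD014500 at 46.6, 5.68 and 11.7 CPM. In these genes the first pool exceeded the next by 5.69-fold, 5.01-fold and 4.00-fold. Their highest low libraries were at 4.13, 6.27 and 9.79 CPM in the same order of genes, above the lowest DMSO distal pool of each. The share of all genes with such a ratio was not computed, so nothing is read from the count of 3. DMSO distal replicate 1 was also the library in which AMEX60DD016881 took its largest share, 5.83% of counts, against 1.50% in DMSO distal replicate 2. The part of pool composition in their distal level was not tested.

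**Figure D4:**
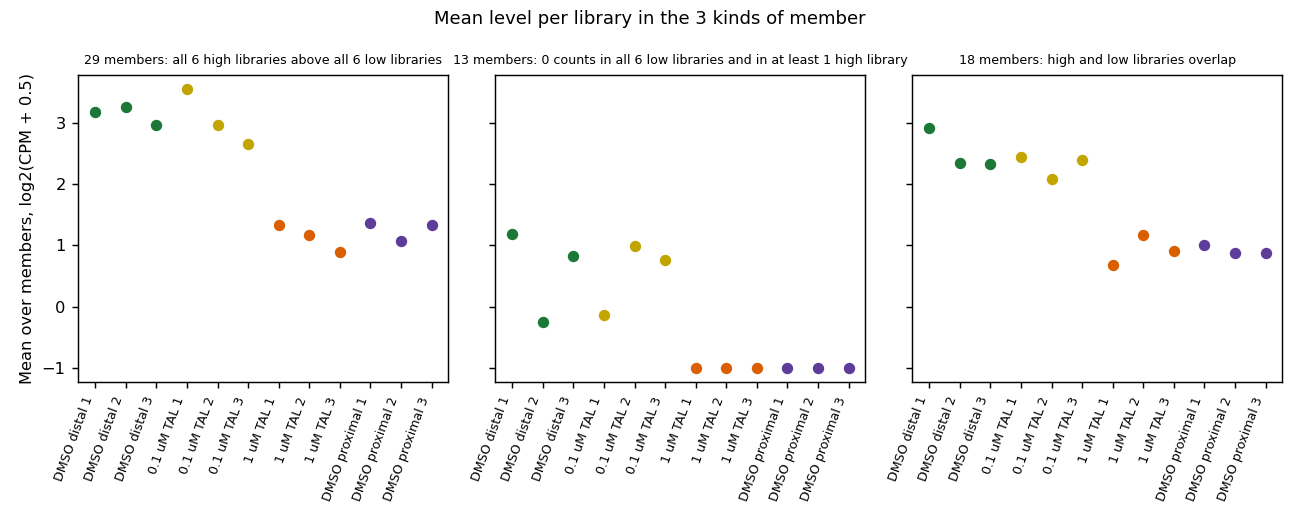
Mean of log2(CPM + 0.5) over the members in each library (points, coloured by group) for the 29 separate members, the 13 members with 0 counts in all 6 low libraries and the 18 overlapping members. The separate members average 2.65 to 3.56 in the 6 high libraries and 0.893 to 1.36 in the 6 low libraries, while the 13 members swing between -0.245 and 1.18 among the high libraries.

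Many of the separate members shared the pool of their highest or lowest level within a distal group. In 0.1 uM TAL replicate 1, 24 of the 29 had their highest level of the 3 libraries at that dose, or 82.8%, against 46.1% of the 21835 genes with enough counts. In 0.1 uM TAL replicate 3, 22 of the 29 had their lowest level, or 75.9%, against 50.8% of those genes. After scaling with TMM factors, which correct totals for a few very abundant genes, the counts were 24 and 18 of the 29, against 34.8% and 42.9% of genes. In DMSO distal libraries, 18 of the 29 were lowest in replicate 3, or 62.1%, against 15.7% of genes, and the count after TMM was also 18. At 1 uM TAL, 19 of the 29 were lowest in replicate 3, or 65.5%, against 45.7% of genes. After TMM the count there was 18, against 38.9% of genes. In DMSO proximal libraries 9 of the 29 were lowest in replicate 3, or 31.0%, against 32.7% of genes. What made replicate 3 low in the distal groups was not tested. These orders were not used by the rule as such, but it ranked members on their lowest high library and their highest low library.

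The 0.1 uM TAL dose left the members near the distal level, which the rule demanded. The difference of 0.1 uM TAL minus DMSO distal ran from -0.49 to 0.47 on the log2(CPM + 0.5) scale, with a median of -0.16, and was below 0 in 42 and above 0 in 18 of the 60. Over the 21835 genes with enough counts the median was -0.055, with 12302 below 0 and 9443 above. In the TMM-scaled fit, 36 of the 58 members tested were below 0 and 22 above. The rule also asked for a high DMSO distal mean, which favours genes that happened to be high in those libraries. The members' split of signs is therefore not read against that over all genes. In the 29 separate members the spread between pools was wider at 0.1 uM TAL, with a median coefficient of variation of 38.5%, against 21.4% in DMSO distal libraries. The 18 overlapping members went the other way, at 43.8% against 60.4%. The 13 members at 0 in all low libraries were at 100.6% against 94.3%. The kinds were cut on the gap, which uses the lowest high library. Contrasts in spread between the kinds are therefore in part fixed by how they were made. Over the 21835 genes with enough counts it was 27.7% at 0.1 uM TAL and 29.6% in DMSO distal libraries. In 24 of the 29 separate members the highest pool at 0.1 uM TAL was replicate 1, so the 29 are not independent measures of that spread. In the comparison of 0.1 uM TAL with DMSO distal, edgeR called 0 of 41884 genes and 0 of 58 members at an adjusted p under 0.05, and 0 members had an unadjusted p under 0.05, against 3.23% of all genes.

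Counts of all 12 libraries were fitted in 1 model with edgeR's quasi-likelihood test, with Benjamini-Hochberg adjustment over 41884 genes. Of the members, 58 passed its filter on low counts. AMEX60DD045651 and AMEX60DD047426 did not. The test called 6 of the 58 members lower at 1 uM TAL than in DMSO distal libraries, where 0.0191% of all genes were called lower. These were AMEX60DD012191, AMEX60DD021956, AMEX60DD021953, AMEX60DD017703, AMEX60DD048317 and AMEX60DD038591. It called 4 members lower at 1 uM than at 0.1 uM TAL, namely the first 4 of these, where 0.0119% of all genes were called lower. It called 4 members higher in DMSO distal than in DMSO proximal libraries, AMEX60DD012191, AMEX60DD048317, AMEX60DD021953 and AMEX60DD038591, where 0.0119% of all genes were called higher. It called the last 4 named also higher in 0.1 uM TAL than in DMSO proximal libraries, where 0.0119% of all genes were called higher. The rule used all 4 of these comparisons, so the counts describe which members had low variation as well as a large difference, and nothing further is read from them. These comparisons also share libraries with each other.

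On a looser measure, every DMSO distal library lay above every DMSO proximal library in 35 of the 58 members, where 4.98% of all genes did so, and 37 had an edgeR unadjusted p under 0.05, as did 6.35% of genes. Every 0.1 uM TAL library lay above every DMSO proximal library in 37 members, where 3.6% of genes did so, and 36 had an unadjusted p under 0.05, as did 3.42% of genes. At 1 uM TAL every library lay below every DMSO distal library in 36 members, where 4.78% of genes did so, and 39 had an unadjusted p under 0.05, as did 4.79% of genes. At 1 uM TAL every library lay below every 0.1 uM TAL library in 35 members, where 6.17% of genes did so, and 38 had an unadjusted p under 0.05, as did 6.04% of genes. These counts too were fixed in large part by the rule.

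The calls changed when single libraries were left out. Leaving out 1 library at a time left 0 of the 6 calls of 1 uM TAL against DMSO distal in 7 of 12 cases. The count was 1 without DMSO distal replicate 1, 1 without DMSO distal replicate 2, 7 without 0.1 uM TAL replicate 1, 6 without 0.1 uM TAL replicate 3 and 3 without DMSO proximal replicate 1. The count of 1 uM against 0.1 uM TAL was 8 without 0.1 uM TAL replicate 3 and 0 without any other single library. The count of DMSO distal against DMSO proximal was 3 without 0.1 uM TAL replicate 1, 4 without 0.1 uM TAL replicate 3, 3 without 1 uM TAL replicate 1 and 0 in the 9 other cases. The count of 0.1 uM TAL against DMSO proximal was 0 in all 12. With a library less, the filter on low counts let 46221 to 47121 genes through, so the fits were repeated on the 41884 genes of the full fit, an alternative chosen after seeing the data. The count of 1 uM TAL against DMSO distal was then 0 in 6 of 12 cases, and it was 2 without DMSO proximal replicate 3, 6 without 0.1 uM TAL replicate 1 and 9 without 0.1 uM TAL replicate 3. The count of 1 uM against 0.1 uM TAL was 9 without 0.1 uM TAL replicate 3 and again 0 in the 11 other cases. The counts of DMSO distal and of 0.1 uM TAL against DMSO proximal were the same as with the wider filter in all 12 cases.

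One comparison had no term of its own in the rule, that of 1 uM TAL with DMSO proximal blastemas, although the rule held the highest library of both groups down. It asks whether the members at the high dose sat at, above or below their proximal level. The edgeR test called 0 of 58 members and 0 of 41884 genes, 0% of those tested. At an unadjusted p under 0.05 there were 5 members, or 8.62% of those tested, against 2830 genes, or 6.76% of all. The fitted change was above 0 in 17 of the 58 members and below 0 in 28, and only these could reach that p. The rest were at 0 counts in both groups, so the shares are not read against each other. Among the 29 separate members the fitted log2 fold change was above 0 in 8, below 0 in 20 and not measurable in AMEX60DD004332, with a median of -0.12, beside a median of -0.03 over all genes. Their difference of means on the log2(CPM + 0.5) scale ran from -1.15 to 0.60, above 0 in 9 and below 0 in 19. On that scale 13853 of the 21835 genes with enough counts were above 0 and 7908 below. Their median was 0.14, against -0.03 in the TMM-scaled fit over all genes tested. For 1 uM TAL minus DMSO distal it was 0.15, against -0.04 in the TMM-scaled fit, and for 1 uM minus 0.1 uM TAL it was 0.20, against -0.05. The medians set side by side differ in gene set, in scaling and in how the change was computed. The part of each in the change of sign was not tested. The 13 members at 0 in both groups have no difference to measure. All 3 libraries at 1 uM TAL lay above all 3 DMSO proximal libraries in 4 of the 58 members, against 8.42% of genes, and below them in 1 member, against 4.37% of genes. Members at 0 in both groups are among the 58 and could enter neither count.

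The member with the smallest p in that comparison, AMEX60DD017703, was lower at 1 uM TAL in every library. It was at 1.48, 1.44 and 0.734 CPM in 1 uM TAL and 2.72, 3.65 and 3.41 CPM in DMSO proximal libraries, with a fitted log2 fold change of -1.47 (SE 0.336) and an edgeR adjusted p of 0.565. In DMSO distal libraries it was at 13.1, 12.9 and 12.3 CPM and at 0.1 uM TAL at 13.7, 11.9 and 5.99 CPM, so the 1 uM TAL pools stood below the proximal level and further from the distal one. The difference did not pass the edgeR test, whereas the DESeq2 Wald test gave it an adjusted p of 0.0135. That test called 2 of the 58 members, both lower at 1 uM TAL, where it called 1.32% of the genes to which it gave an adjusted p, in either direction.

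Of the other members at the low end of that comparison, AMEX60DD005859 had 0 counts in all 3 1 uM TAL libraries and was at 0, 3.09 and 2.85 CPM in DMSO proximal libraries. Its mean was at least 8.54-fold lower at 1 uM TAL than in DMSO proximal libraries at the floor of 3 counts per library (edgeR adjusted p 0.673, DESeq2 adjusted p 0.00503), and 1 proximal pool lacked it as well. AMEX60DD033749 was at 0.595, 0 and 0 CPM in 1 uM TAL and 0, 1.74 and 1.77 CPM in DMSO proximal libraries, with a fitted log2 fold change of -2.72 (SE 1.68) and an edgeR adjusted p of 0.709. Both genes overlapped between the groups.

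At the high end, AMEX60DD054004 was at 0.800, 1.16 and 1.20 CPM in 1 uM TAL and 0.0415, 0.282 and 0.253 CPM in DMSO proximal libraries, with a fitted log2 fold change of 2.57 (SE 0.908) and an edgeR adjusted p of 0.686. All its 1 uM TAL libraries lay above all proximal libraries, where it had 0.410, 2.41 and 2.13 estimated counts. It stood at 3.24, 3.41 and 2.06 CPM in DMSO distal libraries, so the 1 uM TAL level lay between the distal and the proximal one. AMEX60DD039646 was at 4.69, 0 and 3.88 CPM in 1 uM TAL and 1.55, 0 and 1.11 CPM in DMSO proximal libraries, with a fitted log2 fold change of 1.67 (SE 1.38) and an edgeR adjusted p of 0.860. AMEX60DD053793 was at 0.984, 0.649 and 0.198 CPM in 1 uM TAL and 0.243, 0.238 and 0.246 CPM in DMSO proximal libraries, with a fitted log2 fold change of 1.27 (SE 0.851) and an edgeR adjusted p of 0.743. In both genes the groups overlapped. Missing the threshold is not evidence that the groups were equal, and standard errors of this size leave changes of several-fold possible for the lowly expressed members.

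**Figure D5:**
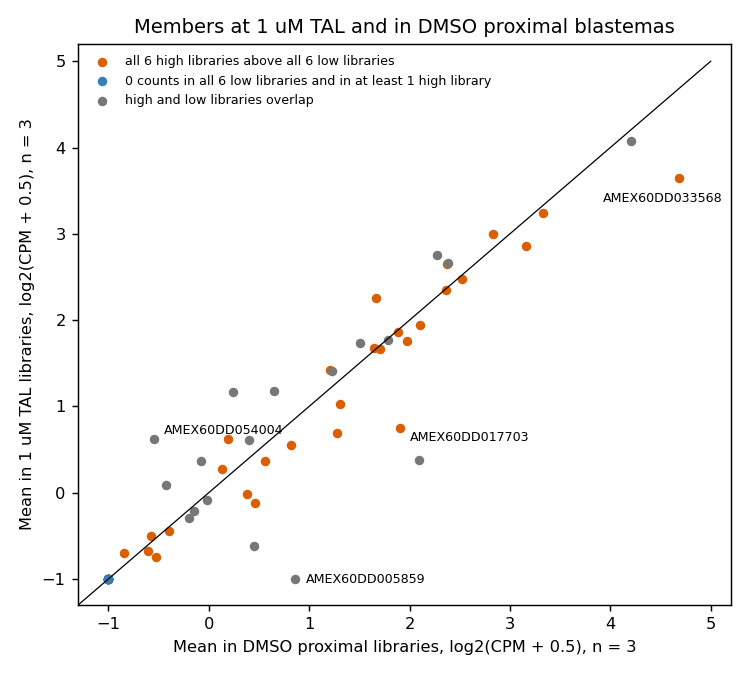
Mean of log2(CPM + 0.5) over 3 libraries at 1 uM TAL (vertical axis) against that over 3 DMSO proximal libraries (horizontal axis) for each member, by kind, with the line of equality. The 29 separate members lie from 1.15 below to 0.598 above the line, and the 13 members at 0 in both groups fall on 1 point with AMEX60DD004332.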

How the data were processed

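The authors' deposited table holds an estimated count for each gene and library. The tools named were Trimmomatic 0.38 and Salmon 0.13.1, per the submitters' processing notes, which give no order or settings. Libraries were made for 150-bp reads, per the labels. The index, annotation and genome build are not given in the sources used here. Of 15 columns, 3 matched no sample described in the labels and were not used. Between 41.3 and 50.2% of values per library were not whole.

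Groups and replicate numbers came from sample titles. Members were chosen on unrounded counts scaled to the column total (CPM). For testing, counts were rounded, filtered with filterByExpr, scaled with TMM and fitted in edgeR 4.0.16 (R 4.3.3), with calls at an adjusted p under 0.05. DESeq2 1.42.0 was an alternative. Standard errors were derived from each log2 fold change and its F statistic (size over the root of F). The script was tested on simulated counts.

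Members and lists were chosen with earlier results of these data known. Named genes were the 10 members with the widest gap, the 5 highest in DMSO distal, the 3 highest and 3 lowest in 1 uM TAL over DMSO proximal, every called member, and 2 on each side of the limit. Lists of limb patterning, retinoic acid and cell type marker genes could not be applied without symbols.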

Additional observations from a re-analysis of the deposited data

How the results depend on the processing

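Counts follow the order DMSO distal over DMSO proximal, 0.1 uM TAL over DMSO proximal, 1 uM TAL over DMSO proximal, 0.1 uM TAL over DMSO distal, 1 uM TAL over DMSO distal and 1 uM over 0.1 uM TAL. The reported edgeR counts were 5, 6, 0, 0, 10 and 5 genes, of which 4, 4, 0, 0, 6 and 4 were members. With DESeq2 size factors they were 6, 0, 0, 0, 12 and 7 genes and 4, 0, 0, 0, 8 and 5 members. With no low-count filter they were 4, 0, 0, 0, 4 and 3 genes and 3, 0, 0, 0, 4 and 2 members. The DESeq2 Wald test called 530, 277, 536, 155, 484 and 436 genes and 18, 20, 2, 0, 30 and 25 members. Its splits into higher and lower were 286 and 244, 172 and 105, 243 and 293, 88 and 67, 190 and 294, and 162 and 274 genes. With only the 6 libraries compared, the counts were 0, 0, 2, 0, 0 and 0 genes and 0 members in each. With the replicate block, all 6 counts were 0 genes and 0 members, and from 942 to 1983 genes were under an unadjusted p of 0.05. Without 1 library each, they ranged over 0 to 10, 0 to 1, 0 to 2, 0 to 1, 0 to 13 and 0 to 14 genes and 0 to 4, 0 to 0, 0 to 0, 0 to 0, 0 to 7 and 0 to 8 members. With the genes tested held as in the full fit, an alternative chosen after seeing the data, they ranged over 0 to 10, 0 to 1, 0 to 2, 0 to 1, 0 to 22 and 0 to 18 genes and 0 to 4, 0 to 0, 0 to 0, 0 to 0, 0 to 9 and 0 to 9 members. Where a count of members was 0 in the 4 comparisons the rule used, 27 to 43 members had an unadjusted p under 0.05. The causes of these changes were not tested. Deviations of same-numbered libraries from their group means correlated at -0.00448 on average over 18 pairs, from -0.232 to 0.215, so shared numbers were not treated as pairs. That average covers all genes tested, whereas among the 29 separate members replicate 3 was most often the lowest pool in each distal group. The median log2 fold change of the members, 1 uM TAL over DMSO proximal, was 0, held there by the members at 0 in both groups. It was -0.15 with only the 6 libraries compared, where 27 members were tested, and -0.15 to 0 without 1 library each. Of the 43 log2 fold changes of 17 named members that were recomputed, none changed sign under the alternatives run. Most were in comparisons whose direction the rule had fixed, so nothing is read from the constant sign. Over the 29 settings besides the full fit, 419 of the recomputed results lost a call of the full fit, 34 gained one and 790 kept their status. Only results called in the full fit could lose a call, the 4, 4, 6 and 4 member calls in the comparisons the rule used. Each of these could be lost at most once per setting, so the 419 losses were most of those possible. Results that were never called and stayed uncalled are among the 790, so that number does not measure how well the calls held. The fold changes of other named members, AMEX60DD047730 among them, were not recomputed.

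The choice of members was itself sensitive. With a pseudocount of 2, only 39 genes met the rule and 26 of the 60 were among them. Without 1 library each, 31 to 53 of the 60 were chosen again, with the fewest without DMSO distal replicate 2. Of the 29 separate members, 10 were chosen again in all 12 cases, against 0 of the 13 and 0 of the 18 others. The kinds were cut on the same gap by which the rule ranks, so this contrast is in part fixed by how they were made. Among the 18 overlapping members, 56 losses came from a gap below the first 60. Most losses among the separate members, 21 in all, came from the bound on 0.1 uM TAL: AMEX60DD021956 missed it without 0.1 uM TAL replicate 1, at -0.57. The other settings kept 40 to 54 of the 60.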

Other observations

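Of the 469 genes that were higher in DMSO distal than in DMSO proximal libraries and lower at 1 uM TAL than in DMSO distal libraries, 356 were also lower at 0.1 uM TAL than in DMSO distal libraries by at least 0.5 on the log2(CPM + 0.5) scale, and 23 were higher by at least that much. These steps share the DMSO distal libraries, so a gene that happened to be high in them is lower in every other group. The 10 separate members chosen again whichever library was left out were AMEX60DD021953, AMEX60DD038381, AMEX60DD038591, AMEX60DD012252, AMEX60DD023492, AMEX60DD018225, AMEX60DD055612, AMEX60DD013478, AMEX60DD044914 and AMEX60DD023374, a list made after the values were seen. Of the 3 members with the widest gap, none is among them.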
